A study of Mus musculus with 6 samples.

Results

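The transcripts described here are those of 10 cytokine genes of helper T cells: Ifng, Il2, Il3, Il4, Il5, Il13, Il17a, Tnf, Lta and Csf2. All probe sets of the array whose annotation named 1 of these genes and no other were taken. This gave 10 probe sets, 1 for each gene, out of 12393 genes with a probe set of their own. They were measured in CD4+CD25+ regulatory T cells (Treg), separated magnetically, from HDAC6 knock out mice (3 arrays) and from wild type mice of strain C57BL6 (3 arrays). HDAC6 is a mostly cytoplasmic deacetylase. The design calls the samples of a genotype independent, without saying whether each came from 1 mouse or from pooled mice. The allele, the knockout's strain, the age of the mice and any stimulation of the cells are not stated in the labels.

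Helper T cells act through secreted cytokines. Interferon-gamma marks the type 1 lineage, which acts against intracellular microbes, interleukins 4, 5 and 13 mark type 2 cells, which act against parasites and in allergy, and interleukin 17A marks type 17 cells, which act at barrier surfaces. Treg restrain these cells, and their defining factor Foxp3 is known to repress several of the cytokine genes, Il2 among them. In resting T cells most of these transcripts are scarce, and they are made rapidly after the antigen receptor is engaged.

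The label was checked against 10 Treg markers, among them Foxp3 and Il2ra, which encodes the CD25 chain used for the separation. All 10 lay above the lower quartile of every array, as did 71.8% of all probe sets, and so did all 8 measured B cell markers and all 6 of plasma cells, so that this count alone does not identify Treg. On the log2 scale of the arrays the mean of Foxp3 was 10.32 (SD 0.12, n = 3) with the knockout and 10.26 (SD 0.06, n = 3) without it. Hdac6 itself was lower on every knockout array, at 7.54, 7.86 and 7.64 against 8.54, 8.23 and 8.42 (difference -0.71, SE 0.11, limma's adjusted p over probe sets 0.0875), and whether its probes cover the deleted sequence is not known here.

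None of the cytokine genes passed the test between genotypes. By limma over all 22626 probe sets, 0 of the 10 had an adjusted p under 0.05, where 0.194% of all probe sets did. At an unadjusted p under 0.05 there was 1 of 10 (Il4), where 10.6% of all probe sets reached that level, and an unmoderated test also gave 0 past the threshold and 1 at an unadjusted p under 0.05. The genotypes did not overlap for 3 of the 10 (Il4, Il2 and Tnf), against 17.2% of all probe sets. Il4 and Tnf were the 2 that lay lower without overlap, as did 9.48% of all. In the knockout 4 members were higher and 6 lower, with a median log2 difference of -0.08, where the median over all probe sets was -0.00. For 9 of the 10 the difference was under 0.25 in size, and the 95% interval of these 9 lay within 2-fold in either direction. For 8 of the 10 the interval lay within 1.5-fold. Il4 was the exception in size. The intervals bound the signal of the probe sets. Il3, Il5, Il13, Il17a and Csf2 were dim, so a larger difference in their transcripts could be missed.

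**Figure D1:**
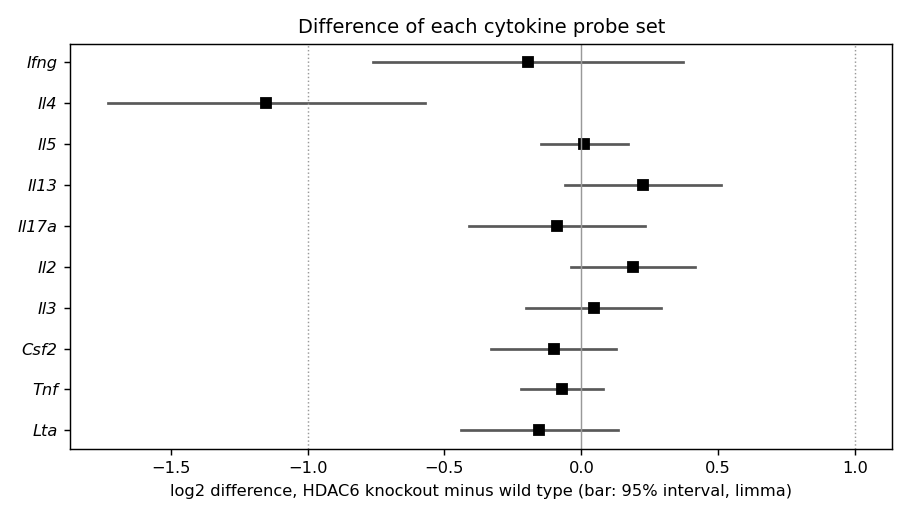
Log2 difference between HDAC6 knockout and wild type (3 arrays each) for the probe set of each cytokine gene, with the 95% interval from limma as a bar; dotted lines mark 2-fold. The interval of Il4, from -1.73 to -0.57, is the 1 that leaves out 0, and the difference does not pass after adjustment.

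Among the type 2 cytokines Il4, which drives B cells to make IgE and IgG1 and sustains type 2 cells, was the member that differed most. Values were 6.19, 6.22 and 6.73 on the knockout arrays and 7.01, 7.87 and 7.71 on the wild type arrays. Every knockout array was below every wild type array, with a gap of 0.28 between the nearest of them. The means were 6.38 (SD 0.30, n = 3) and 7.53 (SD 0.46, n = 3), so that Il4 was 2.22-fold lower in the knockout, a log2 difference of -1.15 (SE 0.25, 95% interval -1.73 to -0.57). Limma's p was 0.00217 before and 0.158 after adjustment over all probe sets, short of the threshold. Of all probe sets, 0.429% differed by as much in either direction. Leaving out each array in turn, the difference ranged from -1.41 to -0.98. Limma's adjusted p then ranged from 0.0846 (without wild type replicate 1) to 0.410 (without knockout replicate 2). In the unmoderated test on all arrays the adjusted p was 0.427. In such bulk samples fewer cells that make a transcript and less of it per cell cannot be told apart.

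Il13 and Il5, the other type 2 cytokines, stayed near the lower quartile of the arrays. Il13, which acts on epithelium and mucus production, read 4.38, 4.64 and 4.66 on the knockout arrays and 4.18, 4.54 and 4.28 on those of wild type. The genotypes overlapped, and the difference of 0.22 (SE 0.12, 95% interval -0.06 to 0.51) had the opposite sign to that of Il4. Leaving out 1 array, it ranged from 0.15 (without wild type replicate 1) to 0.33 (without wild type replicate 2). Il5, the growth factor of eosinophils, read 4.24, 4.26 and 4.24 on the knockout arrays and 4.19, 4.32 and 4.20 on those of wild type, a difference of 0.01 (SE 0.07, 95% interval -0.15 to 0.17). It was the narrowest interval but 1 among the members, and the value was at the level of the lower quartile itself. Set against Il13 within each array, Il4 stood higher by 1.81, 1.58 and 2.08 in the knockout and by 2.83, 3.33 and 3.43 in wild type. These differences did not overlap between genotypes, and since the pair was chosen after the values were seen they are given without a test. With Il13 near the lower quartile they largely repeat the values of Il4, which did not overlap by themselves.

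The 3 type 2 genes lie close together on chromosome 11, and RefSeq's order there runs Kif3a, Il4, Il13, Rad50, Il5, Irf1. Csf2 and Il3 follow further along, before Acsl6. Il4 was the 1 gene of the 14 from Kif3a to Acsl6 with a difference beyond 0.5 in size. Several of the others were dim. Il3, Slc22a4, P4ha2 and Acsl6 lay below the lower quartile on every array, and Il5 and Il13 near it. A difference in such genes could be missed, so these values do not show that Il4 alone changed. Kif3a, a kinesin motor gene on its other side, differed by -0.42 (SE 0.17), with an adjusted p of 0.430 by limma over genes. Rad50, a DNA repair gene between Il13 and Il5 that holds a control region of the type 2 cytokines, differed by 0.14 (SE 0.07), and Irf1, an interferon-induced transcription factor, by 0.17 (SE 0.08). None of these 3 passed.

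**Figure D2:**
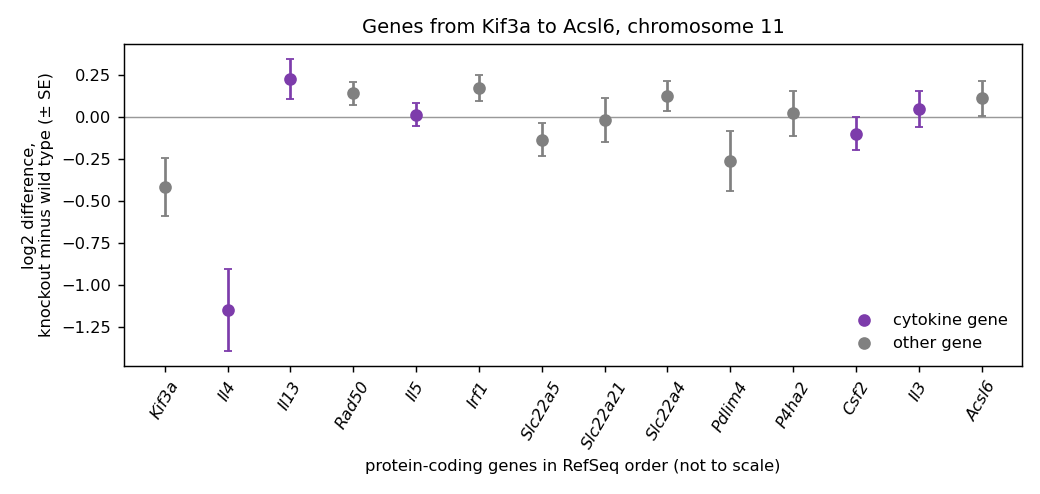
Log2 difference between knockout and wild type (3 arrays each), with its standard error, for the 14 protein-coding genes from Kif3a to Acsl6 on chromosome 11, in RefSeq order and not to scale. Il4 lies at -1.15, Kif3a at -0.42 and all others between -0.26 and 0.22. Il3, Slc22a4, P4ha2 and Acsl6 lay below the lower quartile on every array, where a difference could be missed.

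The promoters of these 3 neighbours are shown because Il4 read apart from the neighbours with which it shares a locus. They are the 250 bases before the gene's start in RefSeq (GRCm38.p6), 5′ to 3′ on the gene's strand, and capitals mark the core motif of NFAT, the factor that calcineurin releases after receptor stimulation (GGAAA, or TTTCC on the other strand). The windows are chr11:53618666-53618915 (minus strand) for Il4, chr11:53634703-53634952 (minus strand) for Il13 and chr11:53720544-53720793 (plus strand) for Il5. RefSeq lists a further start of Il4 inside the gene, whose window held none of the motifs searched and is not shown.
Il4: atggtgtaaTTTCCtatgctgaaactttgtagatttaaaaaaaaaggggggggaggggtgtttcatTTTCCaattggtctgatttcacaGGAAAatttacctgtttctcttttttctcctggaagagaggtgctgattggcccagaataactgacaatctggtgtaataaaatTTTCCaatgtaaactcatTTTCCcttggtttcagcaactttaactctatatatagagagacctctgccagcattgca
Il13: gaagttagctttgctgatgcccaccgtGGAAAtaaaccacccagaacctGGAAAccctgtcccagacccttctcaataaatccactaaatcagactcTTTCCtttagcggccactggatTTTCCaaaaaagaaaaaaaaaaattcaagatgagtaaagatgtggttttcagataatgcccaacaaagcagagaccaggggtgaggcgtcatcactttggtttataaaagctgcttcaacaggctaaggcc
Il5: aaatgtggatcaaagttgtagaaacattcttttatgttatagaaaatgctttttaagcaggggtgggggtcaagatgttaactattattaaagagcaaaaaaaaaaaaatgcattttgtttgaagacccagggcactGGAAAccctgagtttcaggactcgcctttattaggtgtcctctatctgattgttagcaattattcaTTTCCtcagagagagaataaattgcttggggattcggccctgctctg
The core occurred 5 times in the Il4 window, 4 times in that of Il13 and 2 times in that of Il5. At least 1 occurrence is common, being present in 55.6% of 32851 windows of this length, but 0.390% held 5 or more and 1.59% held 4 or more. The half-site of MAF, a factor that acts on Il4 (TGCTGA, or TCAGCA), occurred 3 times in the Il4 window, 1 time in that of Il13 and 0 times in that of Il5, and was present in 16.1% of all windows. The exact TATA box hexamer (TATAAA, or TTTATA) occurred in the Il13 window alone among these 3 and in 12.4% of all. Variants of the box were not searched, such as the tatatata run near the end of the Il4 window. None of these matches overlapped another motif. All 10 members had a window, and 9 of them held the NFAT core, Il17a being without it. A match describes the letters and is not a measured site.

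For the type 1 cytokine Ifng, the activator of macrophages, the spread between arrays was wide. It read 7.81, 7.97 and 8.24 on the knockout arrays and 7.65, 8.38 and 8.58 on those of wild type, so that the lowest and the highest array were both wild type. The difference of -0.20 (SE 0.24, 95% interval -0.76 to 0.37) was smaller than its standard error, with limma's adjusted p at 0.822. It ranged from -0.47 without wild type replicate 1 to -0.01 without wild type replicate 3. The pooled SD of Ifng, 0.38, was above that of 97.8% of all probe sets, and that of Il4, 0.39, above that of 98.0%.

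Il17a, the type 17 cytokine, read 4.59, 4.25 and 4.72 on the knockout arrays and 4.77, 4.54 and 4.51 on those of wild type. The genotypes overlapped and the difference was -0.09 (SE 0.14, 95% interval -0.41 to 0.23). Its values were within 0.63 of the lower quartile on every array.

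Il2, the T cell growth factor on which Treg depend and which they do not make in quantity, was slightly higher in each knockout array. It read 6.12, 6.11 and 6.22 on the knockout arrays and 6.01, 6.09 and 5.78 on those of wild type, a difference of 0.19 (SE 0.10, 95% interval -0.04 to 0.41). Leaving out 1 array, it ranged from 0.10 (without wild type replicate 3) to 0.25 (without wild type replicate 2). The nearest arrays of the 2 genotypes were 0.02 apart, less than the SD of 0.06 within the knockout, and limma's adjusted p was 0.556. Il21, the follicular helper cytokine that lies beside Il2 on chromosome 3, differed by 1.30 (SE 0.35) and did not pass (adjusted p = 0.225 by limma over genes).

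The colony-stimulating cytokines were low. Csf2, which encodes GM-CSF, a growth and activation factor of myeloid cells, read 5.27, 5.29 and 5.52 on the knockout arrays and 5.34, 5.50 and 5.55 on those of wild type. The genotypes overlapped, with a difference of -0.10 (SE 0.10, 95% interval -0.33 to 0.13). Leaving out 1 array, it ranged from -0.18 (without knockout replicate 3) to -0.06 (without knockout replicate 1). Il3, a growth factor of basophils and mast cells, read from 3.15 to 3.52 and was below the lower quartile on all 6 arrays. Its difference was 0.04 (SE 0.10, 95% interval -0.20 to 0.29).

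The tumour necrosis factor family members were bright, and Tnf varied little between arrays. Tnf, the inflammatory cytokine, read 8.15, 8.16 and 8.19 on the knockout arrays and 8.28, 8.20 and 8.25 on those of wild type. The genotypes did not overlap, but the nearest arrays were 0.0049 apart and the whole range was 0.13. The difference was -0.07 (SE 0.06, 95% interval -0.22 to 0.08), which excludes a change of more than 1.17-fold downward. Lta, lymphotoxin alpha, which shapes lymphoid tissue, read 8.96, 9.28 and 9.18 on the knockout arrays and 9.13, 9.25 and 9.49 on those of wild type, a difference of -0.15 (SE 0.12, 95% interval -0.44 to 0.13). Leaving out 1 array, the difference of Lta ranged from -0.23 (without wild type replicate 1) to -0.05 (without wild type replicate 3), and it was -0.07 without knockout replicate 1. Ltb, the membrane partner of Lta and its close neighbour on chromosome 17, differed by -0.13 (SE 0.06). None of the 3 passed.

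**Figure D3:**
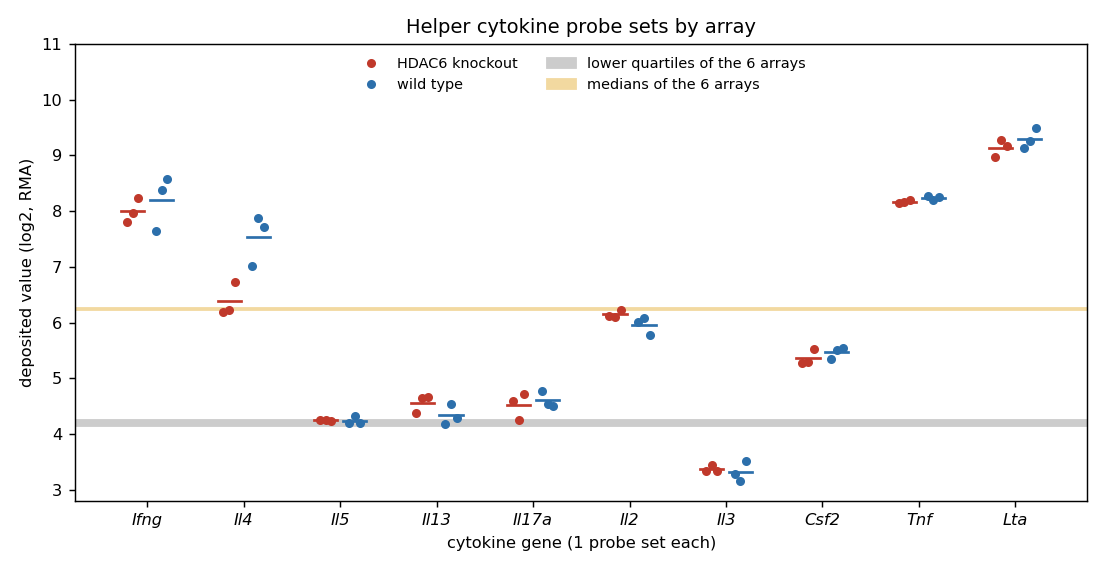
Deposited log2 value of each cytokine probe set on each array (points; 3 arrays per genotype) with the group mean as a bar; the grey and yellow bands span the lower quartiles (4.14 to 4.25) and medians (6.22 to 6.27) of the 6 arrays. Il4 is the member whose groups stand apart by more than 0.02, and Il3, Il5, Il13 and Il17a lie near or below the band of the lower quartile.

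Against the arrays' own scale the members divided into bright and dim ones. The brightness of a probe set also depends on its probes, so these levels do not order the transcripts by abundance. Of the 10, 8 lay above the lower quartile on every array, where 71.8% of all probe sets did. Il5 was above it on 4 of 6 arrays and Il3 on 0 of 6. Ifng, Tnf and Lta lay above the median on every array, as did 47.4% of all probe sets, Il4 on 4 of 6, and the other 6 members on none. Over the lower quartile, Lta stood higher by 4.82 to 5.26, Tnf by 3.93 to 4.14, Ifng by 3.51 to 4.35, Il2 by 1.55 to 1.97 and Csf2 by 1.06 to 1.32. Il4 stood higher by 2.04, 1.98 and 2.48 in the knockout and by 2.87, 3.69 and 3.48 in wild type.

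The lower quartile is no limit of detection, as genes of other organs show. A list of 50 genes that mark liver, pancreas, muscle, brain and other organs, taken as foreign to lymphocytes, gave 75 probe sets for 43 genes. The brightest were of Mbp, with means of 10.45 and 7.69, so the list is no certain set of silent genes. Of the 75 probe sets 38.7% lay above the lower quartile on every array and 4.0% above the median. Their 90th percentile was 5.92 to 6.03 by array, and 4 members exceeded it on every array (Ifng, Il4, Tnf and Lta). Il2 exceeded it on 5 of 6 arrays, and Csf2, Il13, Il17a, Il5 and Il3 on none. For the last 5, expression in these cells is not established by these values, and a difference between genotypes could be missed.

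**Figure D4:**
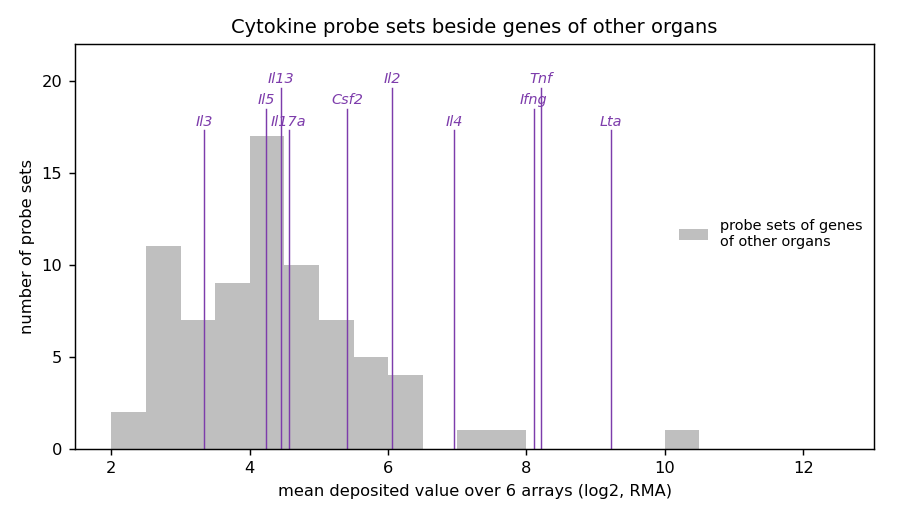
Mean value over the 6 arrays of 75 probe sets of genes of other organs (grey bars, number of probe sets in bins of the log2 value) and of the 10 cytokine probe sets (labelled lines, whose height has no meaning). Il3, Il5, Il13, Il17a and Csf2 lie within the bulk of the organ genes, Il2 at its upper edge, and Il4, Ifng, Tnf and Lta above nearly all of it.

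Several members were low together on the arrays numbered 1. For 5 members (Ifng, Il4, Il13, Lta and Csf2) replicate 1 was the lowest array in both genotypes, as it was for 17.4% of all probe sets. Il4 was nevertheless lower in each knockout array than in wild type replicate 1. The members' profiles over the 6 arrays otherwise differed: by root mean square distance, after each gene was set to its own mean, Ifng was the 187th closest gene to Il4 among 12392, Lta the 850th, and Il13 the 10366th.

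The 5 genes closest to Il4 by that distance were Trgv1, a gamma chain variable gene of the T cell receptor (0.15), the G protein subunit gene Gnb4 (0.18), Il17rb, a receptor chain for interleukin 25 (0.19), the LIM-domain gene Lmo4 (0.21) and Ccr9, a gut-homing chemokine receptor gene (0.22). Il17rb read 6.58, 6.48 and 7.49 on the knockout arrays and 7.80, 8.27 and 8.21 on those of wild type. Trgv1 read 8.24, 8.34 and 8.96 on the knockout arrays and 9.35, 9.73 and 9.80 on those of wild type. The 5 were picked for closeness to Il4 over these same 6 arrays, so a shared order of the arrays largely follows from that choice. In all 5, as in Il4, knockout replicate 3 was the highest knockout array, and none passed (adjusted p from 0.0764 to 0.288 by limma over genes).

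**Figure D5:**
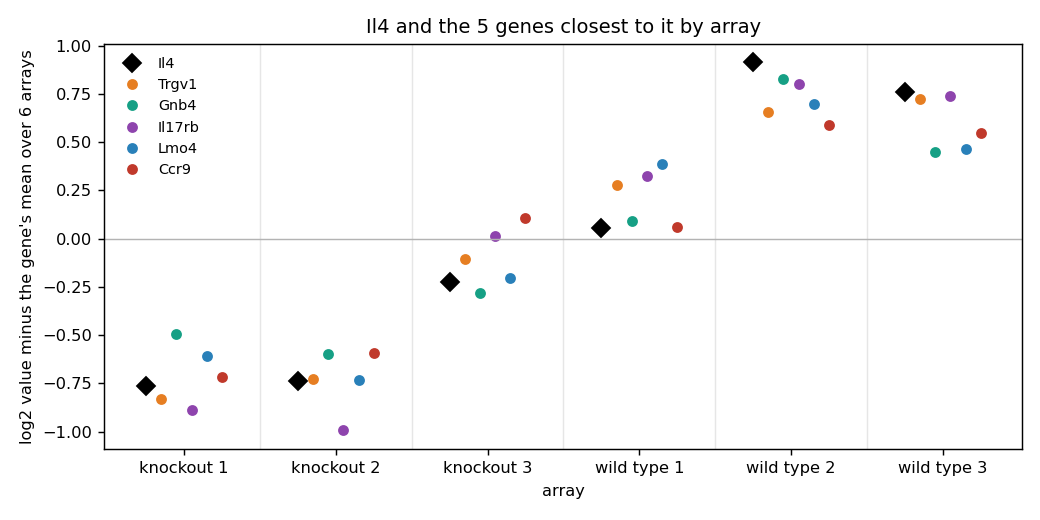
Log2 value of Il4 (diamonds) and of the 5 genes closest to it, each minus its own mean over the 6 arrays, by array. In Il4 and each of the 5, knockout replicates 1 and 2 lie lowest and wild type replicates 2 and 3 highest. The 5 were picked for this likeness over the same arrays.

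Markers of other cells that can make Il4 or Ifng were read beside these values. Levels summed over a list are on the linear scale, each gene by its brightest probe set. Of 10 markers of activated and memory conventional CD4 T cells, 8 were measured, 2 higher and 6 lower, with a median of -0.50. Their summed level was 6651 to 7941 in the knockout and 10197 to 11489 in wild type, without overlap. Il7r and Id2, the brightest of the list, weigh most in this sum and differed by -0.57 (SE 0.10) and -0.78 (SE 0.13). The 2 higher genes differed by 0.01 and 0.11. The chemokine receptor gene Cxcr6 fell by 1.05 (SE 0.12, adjusted p = 0.0310 by limma over genes) and was the 1 marker of any list that passed. Of 8 markers of NKT and innate-like T cells, 6 were measured, 2 higher and 4 lower (median -0.15), and the summed levels overlapped, at 1663 to 2029 in the knockout and 1863 to 2442 in wild type. Zbtb16, which encodes the defining factor PLZF of those cells, read 4.50, 4.71 and 5.60 on the knockout arrays and 6.20, 6.64 and 6.52 on those of wild type, so that the knockout differed by -1.51 (SE 0.28, adjusted p = 0.113 by limma over genes). The NK cell list gave 0 higher and 6 lower of 6 measured, with summed levels of 693 to 1051 in the knockout and 775 to 1327 in wild type. Summed levels of the knockout arrays were lower without overlap for the first of these lists and overlapped for the others. The part of these cells in the Il4 value was not tested.

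Markers of other cells were read in the same way. Mast cell and basophil markers (9 measured) gave 5 higher and 4 lower and summed levels of 459 to 749 in the knockout and 316 to 699 in wild type. Of 5 eosinophil markers 3 (Epx, Siglecf and Ccr3) were below the lower quartile on every array, and the summed levels were 159 to 241 in the knockout and 117 to 199 in wild type. Markers of group 2 innate lymphoid cells (6 measured, Il5 among them) gave 3 higher and 3 lower and 1921 to 2429 against 2345 to 2597. Il17rb, named above as close to Il4, is among the 3 lower. It differed by -1.24 (SE 0.27, adjusted p = 0.154 by limma over genes), without overlap. Follicular helper markers (7 measured) gave 5 higher and 2 lower and 2259 to 2727 against 2221 to 2374. B cell markers (8 measured) summed to 1146 to 1674 in the knockout and 1517 to 2062 in wild type, and myeloid markers (9 measured) to 456 to 670 and 551 to 1480. The CD8 markers summed to 151 to 163 and 172 to 196, but the 2 genes differed in opposite directions, each without overlap between genotypes and neither passing: Cd8a by 0.25 (SE 0.08) and the brighter Cd8b1 by -0.37 (SE 0.09). Plasma cell markers (6 measured) were all higher and summed to 15455 to 17831 in the knockout and 9289 to 12455 in wild type. Most of each plasma cell sum was Jchain, with means of 13.64 in the knockout and 13.06 in wild type. Taken singly, 5 of these 6 genes did not overlap between genotypes, where 17.2% of all probe sets did not. The same held for 4 of 7 follicular helper, 2 of 6 group 2 innate lymphoid and 2 of 2 CD8 genes. It held for 1 of 8 B cell, 1 of 9 myeloid, 1 of 5 eosinophil and 0 of 9 mast cell and basophil genes. The CD8 and plasma cell sums did not overlap between genotypes, the others in this paragraph did. Some of these genes (Gata3, Rora, Bcl6 and Prdm1) are also in the list of regulators of helper cytokine genes, so not every marker is particular to its cell type. The part of any such cells in the members' values was not tested.

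The genes around the cytokines were read from 6 further lists holding 90 measured genes, of which 0 passed by limma over genes. At an unadjusted p under 0.05 there were 23 (25.6%), where 11.2% of all genes reached that level and 0.161% passed. The lists were chosen with earlier results of these data known, so these shares do not test the lists. The unmoderated test also passed none, while limma with trend and robust settings passed 3 (Nfil3, Ahr and Tnfrsf1b).

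Among the regulators of helper cytokine genes (23 measured, 14 higher and 9 lower, median 0.06), the lineage factors of type 1 and type 2 cells stood at -0.44 (SE 0.15) for Tbx21 and -0.07 (SE 0.08) for Gata3. Stat6, which carries the interleukin 4 signal, differed by -0.03 and Stat4, which carries that of interleukin 12, by 0.28. The activators Maf, which acts on Il4, and Nfatc1 were higher in every knockout array, by 0.33 (SE 0.08) and 0.48 (SE 0.11). Maf read 5.58, 5.52 and 5.40 on the knockout arrays and 5.08, 5.21 and 5.22 on those of wild type. Each value lay under the 90th percentile of the organ genes (5.92 to 6.03), so expression of Maf is not established by them. Ahr, a ligand-activated factor of type 17 cells and Treg, differed by 0.56 (SE 0.09) and Rora by -0.41 (SE 0.09). None passed, with adjusted p from 0.0862 for Ahr upward. Foxp3 is a member of this list and differed by 0.06.

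The receptors of the 10 cytokines gave 9 higher and 8 lower of 17 measured, with a median of 0.01. Il4ra, the receptor chain for interleukins 4 and 13, differed by -0.04 (SE 0.07), Ifngr1 by -0.00 (SE 0.10) and Il2ra by 0.01 (SE 0.12). Tnfrsf1b, the TNF receptor that supports Treg, was higher in each knockout array, by 0.47 (SE 0.09, adjusted p = 0.113 by limma over genes). Il5ra differed by -0.45 (SE 0.08), at 3.68 and 4.13, below or at the lower quartile.

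Other T cell cytokines and chemokines were 9 higher and 9 lower of 18 measured, with a median of 0.02. The suppressive cytokine Il10 read 6.45, 6.28 and 6.60 on the knockout arrays and 5.38, 5.62 and 5.91 on those of wild type, so that the knockout differed by 0.81 (SE 0.15, adjusted p = 0.112 by limma over genes). Fasl, the death ligand, read 7.50, 7.22 and 7.20 on the knockout arrays and 7.73, 8.01 and 8.15 on those of wild type, so that the knockout differed by -0.65 (SE 0.13, adjusted p = 0.141 by limma over genes). Neither gene overlapped between genotypes and neither passed.

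Genes that follow the cytokines' action were read last. Genes associated with type 2 cells gave 9 higher and 3 lower of 12 measured (median 0.11), with the chemokine receptor Ccr8 at 0.41 and Nfil3, a regulator of Il4-making cells, at 0.70 (SE 0.09, adjusted p = 0.0564 by limma over genes). Genes induced by interferon-gamma gave 11 higher and 2 lower of 13 measured (median 0.17), with Gbp2 at 0.32 and the peptide transporter gene Tap1 at 0.23, while Ifng itself was at -0.20. The neighbours of the cytokine loci gave 10 higher and 8 lower of 18 measured (median 0.05), among them Mdm1, near Ifng, at -0.53 (SE 0.08, adjusted p = 0.0862 by limma over genes). Over all genes the median was 0.00, and none of these genes passed.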

How the data were processed

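Transcripts were measured on 6 arrays of 1 colour, 3 per genotype. Per the submitters' processing notes the authors' values came from RMA (background correction, quantile normalization and probe summary), with no version given. The deposited table holds 22690 probe sets, on a scale read as log2 because of the span of the values. RMA compresses differences of dim probe sets, and no detection calls or scan dates were used here. After 64 control probe sets were left out, 22626 were tested. Of these 20380 carried 1 gene symbol from the platform's annotation, which RefSeq gene IDs left unaltered.

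The test between genotypes was limma's (version 3.58.1, R 4.3.3; lmFit, then eBayes, genotype as the only term, two-sided), adjusted by Benjamini-Hochberg over all probe sets with a threshold of 0.05. For lists, each gene was taken by its brightest probe set and p-values were adjusted over 12393 genes. The fit was tested on simulated data. The precision is limited by the number of arrays. The members and lists were chosen with earlier results of these data known. Named were all members, the 5 genes closest to the member with the smallest p, Hdac6, Foxp3 and Il2ra, and of each list up to 4 genes by smallest p; other genes in the text (such as Gata3, Stat6, Il4ra and Rad50) were named for their known role after their values were seen. The alternatives tried comprised quantile normalization, a replicate block, median centring, trend and robust settings, an unmoderated test, a filter on dim probe sets, gene means over probe sets, other reference levels and leaving out each array. Plots used matplotlib 3.10.9 (Python 3.11.15).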

Additional observations from a re-analysis of the deposited data

How the results depend on the processing

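The count of 0 cytokine probe sets past the threshold held under every alternative run, and Il4 stayed negative in each; the filter to the upper 60% of probe sets left out Il3, Il5, Il13 and Il17a. With quantile normalization Il5 turned to -0.0161. Leaving out 1 array, Il5 ranged from -0.0112 to 0.0508, Il3 from -0.0397 (without wild type replicate 2) to 0.15 and Il17a from -0.19 to 0.0466 (without knockout replicate 2). The count of 8 members above the lower quartile became 3 with the array median and 4 with the 90th percentile of organ genes. Of the 90 genes around the cytokines, 3 passed with trend and robust settings (Nfil3, Ahr and Tnfrsf1b), and 1, Nfil3, with the upper 60% of probe sets and with gene means. Over all probe sets 44 passed, but 147 with trend and robust settings, 0 in the unmoderated test (2239 at an unadjusted p under 0.05), and 5 to 51 leaving out 1 array (5 without knockout replicate 2, 11 without wild type replicate 2, 20 without knockout replicate 1). The cause of these shifts was not tested. Arrays of the same number did not deviate together throughout (correlations of their deviations 0.22, -0.0944 and 0.103), so the numbers were not taken as pairs. With the replicate number as a block 27 probe sets passed in place of 44, and Il4 kept an adjusted p of 0.132. No array was tied to a recorded batch, and dim probe sets limit what could be seen for Il3, Il5, Il13, Il17a and Csf2.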
